A study of Mus musculus with 12 samples.

Results

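The SLC25 family, the mitochondrial carriers of the inner membrane, was described across 12 RNA sequencing libraries of cultured mouse adipocytes. Members were all genes whose symbol was Slc25a followed by digits, leaving out Slc25a20, with at least 1 FPKM (sequenced fragments, scaled by transcript length and by the library's total) in at least 2 libraries. This gave 34 members of 46 family symbols measured, out of 24888 entries, of which 11601 passed the same filter. The libraries formed 6 groups of 2. In 8 of them, preadipocytes of inguinal white fat from C57BL/6 mice, labelled WT or ATF7KO, had been turned into adipocytes, called beige where rosiglitazone was present and white where it was not. The other 4 came from C3H10t1/2, an established line of mouse mesenchymal cells able to become adipocytes, made beige with rosiglitazone and labelled Control or ATF7-Overexpressing. Rosiglitazone is an agonist of PPARγ, the nuclear receptor that drives adipocyte differentiation, and ATF7 is a transcription factor of the ATF2 family that binds cAMP response elements. The labels do not give how the deletion or the overexpression was made, the age or number of the mice, or whether the 2 libraries of a group came from separate cultures, so p-values cover the spread among these libraries alone, which may be technical.

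SLC25 carriers are small proteins built from tandem repeats of transmembrane helices that form a gated pathway through the otherwise tight inner mitochondrial membrane. They exchange nucleotides, phosphate, organic acids, amino acids, cofactors and metals between the cytosol and the matrix, most of them as one solute for another. In fat cells, citrate exported by these carriers feeds the cytosolic synthesis of fatty acids. In brown and beige cells, matrix fuel oxidation depends on the import of substrates and cofactors, and the uncoupling protein UCP1 belongs to the same superfamily under another symbol.

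As a check of the labels, Atf7 (chromosome 15, 102525946 to 102625464, mm10) had 7.797 and 7.83 FPKM in WT beige, 7.26 and 7.94 in ATF7KO-labelled beige, 9.099 and 7.102 in WT white and 6.88 and 7.73 in ATF7KO-labelled white. It was not lower by the test in either (adjusted p = 0.949 and 0.604), and with 1 value for the whole gene a loss of some exons could not be seen, so directions given for the ATF7KO-labelled libraries rest on their labels alone. In C3H10t1/2 it rose from 8.52 and 9.09 to 41.2 and 39.1 FPKM with overexpression. Adipocyte markers were present in all libraries and differed between white and beige. The summed level of 8 of them was 2746 to 4033 FPKM in white, 10411 to 11552 in primary beige and 11702 to 12745 in C3H10t1/2, and 6 were called higher in WT beige than in WT white (median log2 fold change 1.15) and all 8 in the ATF7KO-labelled pair (1.34). Most of this summed level was Fabp4, the fatty acid binding protein of adipocytes. Fabp4 stood at 9181 and 8602 FPKM in WT beige, against 2497 and 3055 FPKM without rosiglitazone. Pparg hardly differed in WT, at 47.0 and 45.1 FPKM in beige against 45.8 and 45.0 in white. Cebpa stood at 104 and 105 FPKM in WT beige against 88.3 and 84.6 in WT white. The summed level of 8 beige markers was 43.2 to 59.1 FPKM in white, 794 to 1063 in primary beige and 596 to 1071 in C3H10t1/2. All 7 of them that were tested, some passing the filter through beige alone, were called higher in beige in both genotypes. Their median log2 fold change was 4.18 in WT and 4.34 in the ATF7KO-labelled pair. Of these markers, Ucp1 was listed at 0 in all 4 white libraries, and Dio2 stayed under 1 FPKM in all 12. White libraries also carried more RNA of other cells. The summed level of 9 macrophage markers was 420 to 571 FPKM in white against 22.6 to 32.2 FPKM in primary beige and 1.68 to 2.27 FPKM in C3H10t1/2, and that of 8 stromal progenitor markers was 269.6 to 394, 93.2 to 112 and 47.1 to 57.9 FPKM. None of the 9 macrophage markers was at 0 in any primary library, whereas Itgam was at 0 in all 4 C3H10t1/2 libraries. In such bulk samples, fewer cells of a type and less RNA per cell cannot be told apart, and the part of these other cells, or of the adipocyte markers' rise, in the differences between white and beige below was not tested.

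A small set of members held most of the family's RNA. The 5 most abundant members of a library carried 65.9% to 72.8% of the summed FPKM of all 34. In WT beige they were Slc25a5, Slc25a4, Slc25a3, Slc25a39 and Slc25a1, at means of 192, 160.2, 138, 129.8 and 98.1 FPKM, and no 2 neighbours in that order overlapped between their libraries. In WT white, Slc25a10 took the place of Slc25a39 among the leading 5. In C3H10t1/2, Slc25a3 stood first, followed by Slc25a5 and Slc25a1. Summed over all members the family stood at 1064 to 1109 FPKM in WT beige, 1115 to 1208 FPKM in ATF7KO-labelled beige, 644 to 688 FPKM in the white libraries and 1357 to 1425 FPKM in C3H10t1/2. The median member had 8.25 FPKM in WT beige, 5.66 FPKM in WT white and 11.04 FPKM in the C3H10t1/2 controls.

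**Figure D1:**
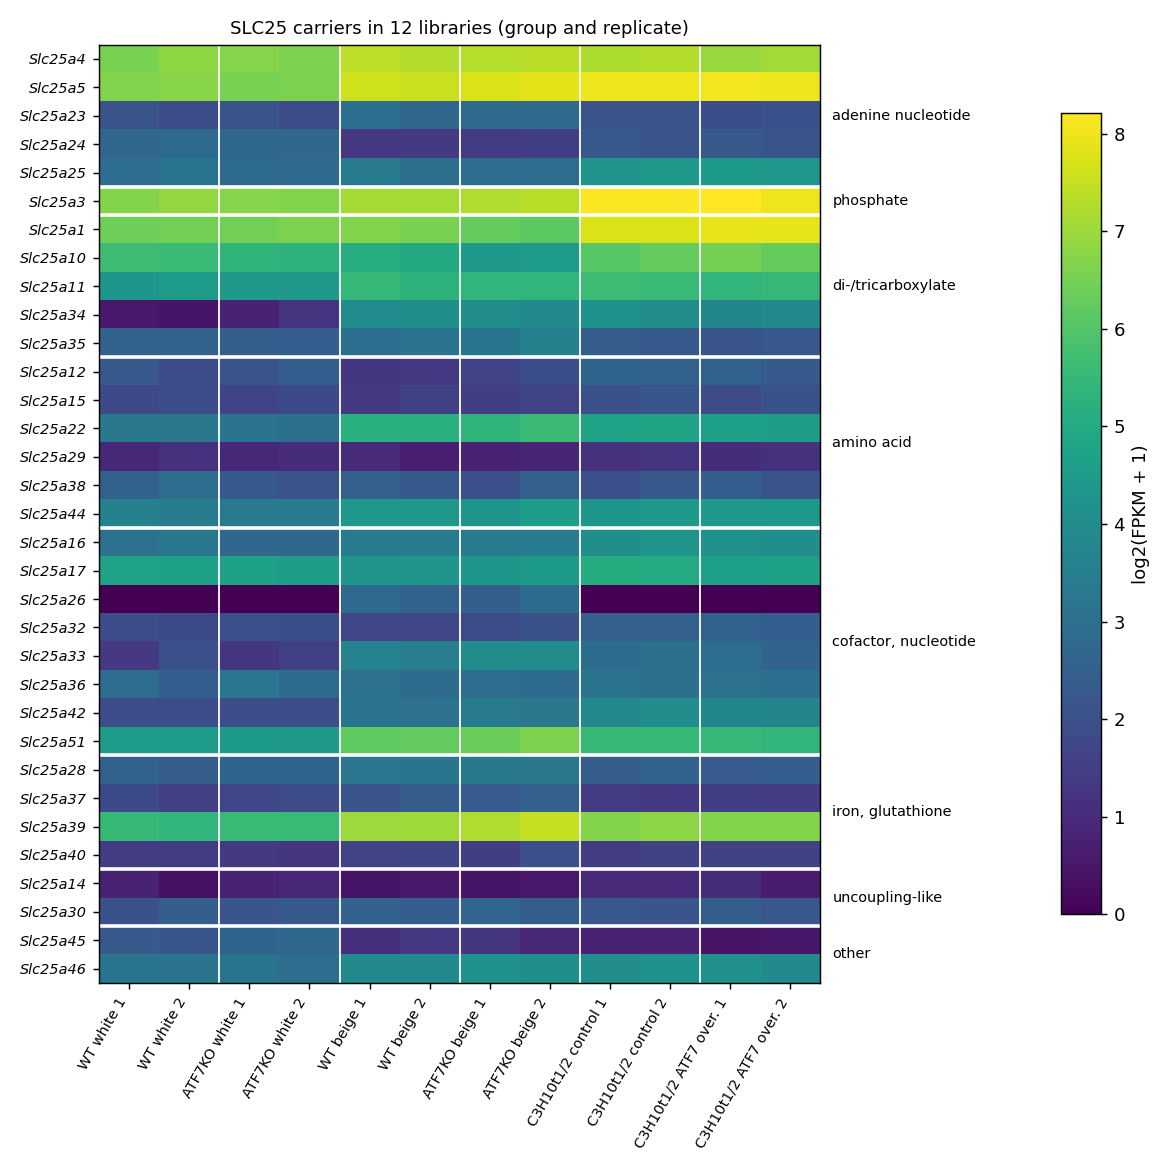
Level of 33 of the 34 SLC25 members (rows, grouped by role) in each of the 12 libraries (columns, by group and replicate), coloured by log2(FPKM + 1). Slc25a26 is at 0 outside the primary beige libraries, Slc25a34 is dark in the 4 white libraries, and Slc25a3 and Slc25a1 are brightest in the 4 C3H10t1/2 libraries.

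Of the 34 members, 29 reached 1 FPKM in every library. Those nearest the limit from above were Slc25a14, whose highest values were 1.105 and 1.003 FPKM, and Slc25a29, at 0.599 to 1.34 FPKM. The 12 family genes that were not members included Slc25a47 and Slc25a27, whose highest values were 0.939 and 0.886 FPKM. Another was Slc25a13, the citrin isoform of the aspartate-glutamate carrier, at 0.1297 to 0.583 FPKM. Slc25a48 and Slc25a54 were listed at 0 in all 12. Family genes that lay within 100 kb of each other differed in level. Slc25a41 ended 2.06 kb from Slc25a23 on chromosome 17 and reached at most 0.121 FPKM while Slc25a23 had 2.65 to 6.92 FPKM. On chromosome X, Slc25a43 ended 18.3 kb from Slc25a5 and reached at most 0.667 FPKM. Slc25a54 lay 6.57 kb from Slc25a24 on chromosome 3.

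More carriers rose than fell in beige adipocytes relative to white ones. Of the 33 members tested in WT, 18 were higher in beige and 6 lower, where 21.6% of all 11294 genes tested were called higher and 32.1% lower (53.7% called in all). Among the ATF7KO-labelled cultures 20 members were higher and 5 lower, beside 26.6% and 34.3% of all genes (61% in all). The median member had a log2 fold change of 0.48 in WT and 0.63 in ATF7KO-labelled cultures, beside medians of −0.10 and −0.06 over all genes tested. Slc25a26, Slc25a29 and Slc25a34 passed the filter through the beige or the white libraries alone. A gene that passed through its high side alone leans that way by selection, though Slc25a29 was called in neither genotype. Over the 30 members that passed on both sides, a count added after seeing the data, 16 were higher and 6 lower in WT, beside 22.6% and 27.7% of 9744 genes, and 18 were higher and 5 lower in ATF7KO-labelled cultures, beside 28.4% and 29.2%. Their medians were 0.40 and 0.62, beside −0.0519 and −0.00439 for these genes. Fold changes are differences of log2(FPKM + 1), beige minus white unless said otherwise, which understates the change of low genes, and a gene was called at an adjusted p under 0.05. The WT and ATF7KO-labelled contrasts compared different libraries. Both came from 1 fit of the 8 primary libraries with a shared estimate of the spread, so their calls are not independent. Both called 18 members higher and 4 lower, and 0 members were called in opposite directions. How many of all genes were called alike in both was not counted. With 53.7% and 61% of all genes called, shared calls are not particular to the carriers. Only the WT contrast called Slc25a15 and Slc25a17, only the ATF7KO-labelled one called Slc25a1, Slc25a16 and Slc25a40, and 6 members were called in neither, which does not by itself show a difference between the genotypes. Quantile normalization moved the median of all genes in WT from −0.10 to 0.02 and leaving out small RNA genes moved it to −0.23, and the members' split was then 18 higher and 5 lower, and 17 higher and 8 lower.

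**Figure D2:**
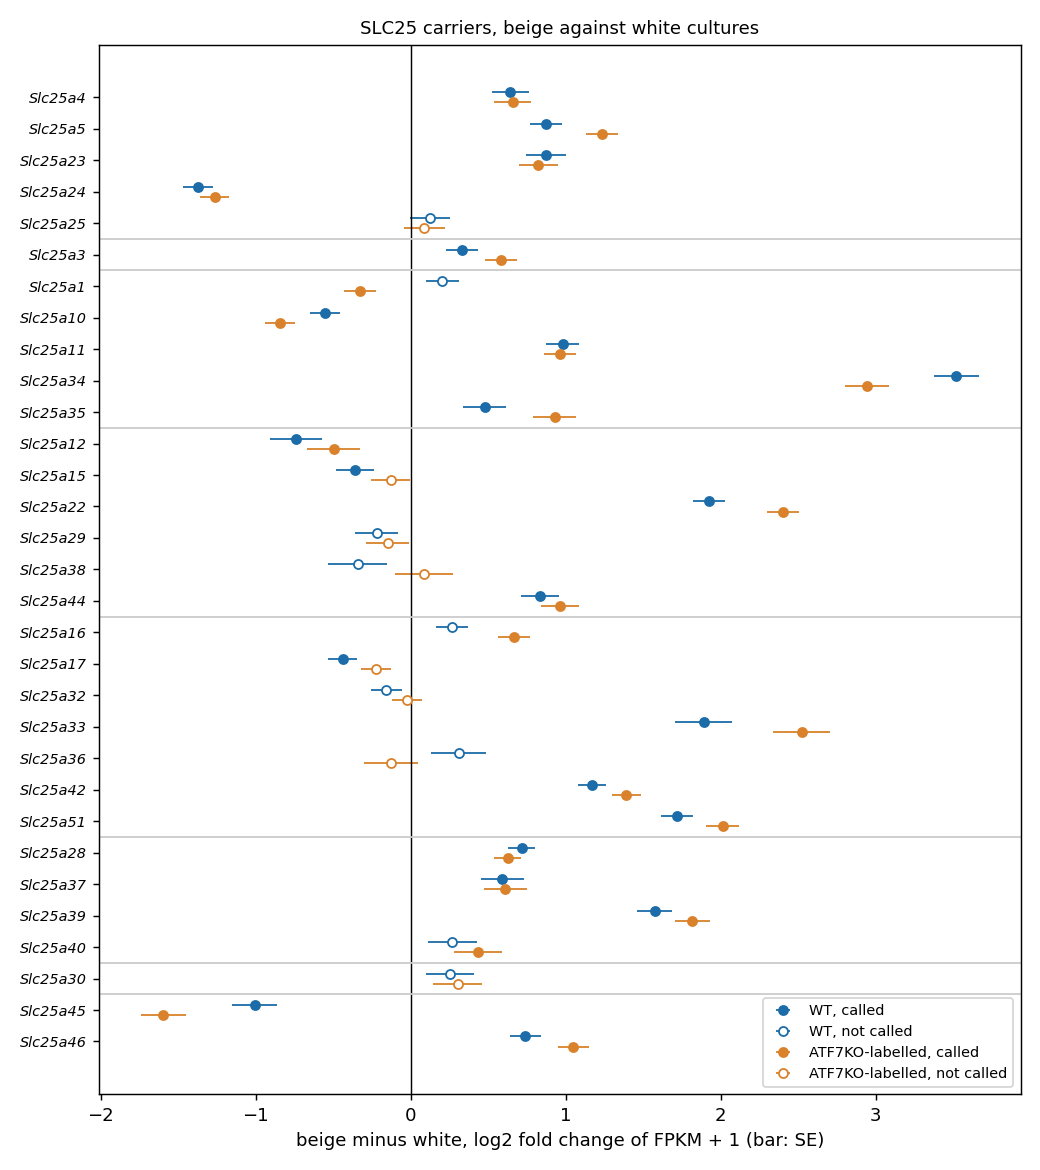
Beige minus white log2 fold change of FPKM + 1 (x axis) for the SLC25 members drawn (rows, grouped by role) in WT (blue) and ATF7KO-labelled (orange) cultures, with the standard error as a bar and open symbols where the adjusted p was not under 0.05. Slc25a26, listed at 0 in white, and Slc25a14, not tested, have no point. Slc25a34, which passed the filter through beige alone, Slc25a22, Slc25a33, Slc25a51 and Slc25a39 lie farthest to the right in WT and Slc25a24 farthest to the left. Slc25a3, at 0.33 in WT, falls to −0.09 under quantile normalization.

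Adenine nucleotide carriers exchange ATP made in the matrix for cytosolic ADP, or load the matrix with ATP-Mg in exchange for phosphate. Of the 5 members, 3 rose and 1 fell in beige in each genotype. Slc25a4 (chromosome 8, 46207341 to 46211009), which encodes ANT1, the ADP/ATP carrier of heart and muscle, stood at 169 and 151 FPKM in WT beige, 156 and 163 in ATF7KO-labelled beige, 93.5 and 111 in WT white and 105 and 96.2 in ATF7KO-labelled white. All beige values lay above all white ones (0.64, SE 0.12, adjusted p = 0.00201 in WT and 0.66, SE 0.12, adjusted p = 0.00142 in ATF7KO-labelled cultures), and both calls were lost under quantile normalization. Slc25a5 (chromosome X, 36795597 to 36798808), which encodes the more widely expressed ANT2, stood at 198 and 187 FPKM in WT beige, 213 and 234 in ATF7KO-labelled beige, 101 and 108 in WT white and 92.3 and 96.2 in ATF7KO-labelled white. It rose in WT (0.88, SE 0.10, adjusted p = 0.000137) and by 1.24 (SE 0.10, adjusted p = 1.29e-05) in ATF7KO-labelled cultures. Slc25a5 is uncertain, since 62.4% of the 36-base stretches of its transcript also occur in transcripts of 12 other genes, chiefly its pseudogene. The share of ANT1 in the sum of both was 46.1% and 44.8% in WT beige, 42.2% and 41.0% in ATF7KO-labelled beige, 48.2% and 50.8% in WT white, and 53.2% and 49.99% in ATF7KO-labelled white. Every white library had a larger share of ANT1 than every beige one. In C3H10t1/2, Slc25a4 stood at 145 and 153 FPKM in the controls and 121 and 133 with ATF7 overexpressed. Slc25a5 stood there at 256 and 255 FPKM in the controls and 267 and 257 with ATF7 overexpressed.

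The calcium-regulated ATP-Mg/phosphate carriers went in different directions. Slc25a24 (chromosome 3, 109123149 to 109168409), which encodes SCaMC-1, stood at 1.55 and 1.64 FPKM in WT beige, 1.72 and 1.88 in ATF7KO-labelled beige, 5.49 and 5.95 in WT white and 5.89 and 5.55 in ATF7KO-labelled white. Its white libraries were all above its beige ones, by 3.59-fold in mean FPKM in WT (−1.37, SE 0.09, adjusted p = 6.62e-06) and by 3.18-fold in ATF7KO-labelled cultures (−1.26, SE 0.09, adjusted p = 6.27e-06). In C3H10t1/2 it stood at 3.76 and 3.30 FPKM in the controls and 3.91 and 3.39 with ATF7 overexpressed, between beige and white primary cultures. Slc25a23, which encodes SCaMC-3, stood at 6.92 and 5.58 FPKM in WT beige, 6.04 and 6.04 in ATF7KO-labelled beige, 3.26 and 2.65 in WT white and 3.26 and 2.71 in ATF7KO-labelled white. It was higher in beige in both genotypes (0.87, SE 0.13, adjusted p = 0.00049 in WT and 0.82, SE 0.13, adjusted p = 0.000533). Slc25a25 (chromosome 2, 32414487 to 32451470), which encodes SCaMC-2, stood at 9.46 and 7.12 FPKM in WT beige, 6.57 and 6.76 in ATF7KO-labelled beige, 6.89 and 8.05 in WT white and 6.36 and 6.06 in ATF7KO-labelled white. WT beige and WT white overlapped, ATF7KO-labelled beige lay just above ATF7KO-labelled white, and it was called in neither genotype (0.12, SE 0.13, adjusted p = 0.453 in WT). With these 3 carriers summed, Slc25a24 made up 8.63% to 12.8% in primary beige, 35.1% to 38.8% in white and 12.4% to 14.9% in C3H10t1/2. White libraries were apart from both sources of beige adipocytes in this share.

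Phosphate enters the matrix through Slc25a3 (chromosome 10, 91116578 to 91123963), the phosphate carrier needed for ATP synthesis. It stood at 138 and 138 FPKM in WT beige, 150.4 and 158 in ATF7KO-labelled beige, 102 and 117 in WT white and 104 and 101 in ATF7KO-labelled white. The rise in beige passed the test in WT (0.33, SE 0.10, adjusted p = 0.0257) and in ATF7KO-labelled cultures (0.58, SE 0.10, adjusted p = 0.00125), but under quantile normalization the value was −0.09 in WT (adjusted p = 0.365) and that of ATF7KO-labelled cultures was not called. The WT call was also lost without small RNA genes, without either WT beige library and without the first WT white library. It was the most abundant member in C3H10t1/2, at 283 and 286 FPKM in the controls and 295 and 258 with ATF7 overexpressed.

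Carriers of di- and tricarboxylates lay on both sides of white. Of the 5 members, 3, Slc25a34 included, rose and 1 fell in WT beige, and 3 rose and 2 fell in ATF7KO-labelled beige. Slc25a34 (chromosome 4, 141618825 to 141623834) stood at 14.8 and 15.97 FPKM in WT beige, 15.8 and 14.2 in ATF7KO-labelled beige, 0.462 and 0.392 in WT white and 0.778 and 1.41 in ATF7KO-labelled white. Its mean was 36.1-fold higher in beige than in white in WT and 13.7-fold higher in ATF7KO-labelled cultures, and it stood at 17.3 and 15.8 FPKM in the controls and 12.6 and 13.4 with ATF7 overexpressed in C3H10t1/2. Of its white values 1 reached 1 FPKM, so the gene passed the filter through the beige cultures and leans that way by selection. These values are a description without a test. Slc25a34 ranked first of the tested members by fold change in both genotypes, leaving out Slc25a26, and its start region of 250 bases before to 50 after the annotated start is shown for that reason (RefSeq, GRCm38.p6). It held none of the 4 motifs searched below.
Slc25a34 (chr4:141623785-141624084, minus strand): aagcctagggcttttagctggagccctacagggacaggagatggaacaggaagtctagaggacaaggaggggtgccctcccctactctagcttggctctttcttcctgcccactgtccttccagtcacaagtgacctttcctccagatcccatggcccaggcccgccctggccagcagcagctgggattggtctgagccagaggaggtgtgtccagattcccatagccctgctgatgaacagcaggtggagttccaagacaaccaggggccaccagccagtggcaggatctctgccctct

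Slc25a35, a close relative, was higher in beige by 0.48 in WT and 0.93 in ATF7KO-labelled cultures, at 6.94 and 7.82 FPKM in WT beige, 8.07 and 11.2 in ATF7KO-labelled beige, 5.02 and 5.004 in WT white and 4.59 and 4.47 in ATF7KO-labelled white. The WT call was lost without the second WT beige library or without either WT white one. Its value is uncertain, since 31.3% of its exonic length overlaps Rangrf on the opposite strand and no source states that reads were counted by strand. Slc25a11 (chromosome 11, 70644027 to 70647039), the oxoglutarate carrier of the malate-aspartate shuttle, stood at 43.5 and 38.5 FPKM in WT beige, 41.5 and 40.9 in ATF7KO-labelled beige, 18.8 and 21.8 in WT white and 20.5 and 20.8 in ATF7KO-labelled white. Beige means were 2.02-fold those of white in WT and 2.00-fold in ATF7KO-labelled cultures (0.98, SE 0.11, adjusted p = 7.78e-05 and 0.96, SE 0.11, adjusted p = 6.29e-05). It stood at 48.1 and 46.8 FPKM in the controls and 40.95 and 43.6 with ATF7 overexpressed in C3H10t1/2.

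Slc25a10 and Slc25a1 did not follow the rise. Slc25a10 (chromosome 11, 120491837 to 120501161), the dicarboxylate carrier that exchanges malate or succinate for phosphate and is abundant in white fat, stood at 33.8 and 30.4 FPKM in WT beige, 20.96 and 21.7 in ATF7KO-labelled beige, 48.4 and 46.7 in WT white and 40.2 and 37.97 in ATF7KO-labelled white. All white values were above all beige ones, and the fall in beige was −0.55, SE 0.10, adjusted p = 0.00122 in WT and −0.84, SE 0.10, adjusted p = 7.51e-05 in ATF7KO-labelled cultures. Slc25a1 (chromosome 16, 17925211 to 17928219), the citrate carrier that supplies cytosolic acetyl-CoA for fatty acid synthesis, stood at 103 and 93.7 FPKM in WT beige, 75.4 and 70.1 in ATF7KO-labelled beige, 82.8 and 87.2 in WT white and 86.7 and 96.5 in ATF7KO-labelled white. The difference in WT was 0.20, SE 0.11, adjusted p = 0.136, and in ATF7KO-labelled cultures it fell in beige (−0.33, SE 0.11, adjusted p = 0.0251). That call was lost with median centring and without either second ATF7KO-labelled library. Both genes were far higher in C3H10t1/2, Slc25a10 at 66.6 and 75.9 FPKM in the controls and 88.3 and 76.3 with ATF7 overexpressed. Slc25a1 stood there at 216 and 216 FPKM in the controls and 244 and 239 with ATF7 overexpressed.

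**Figure D3:**
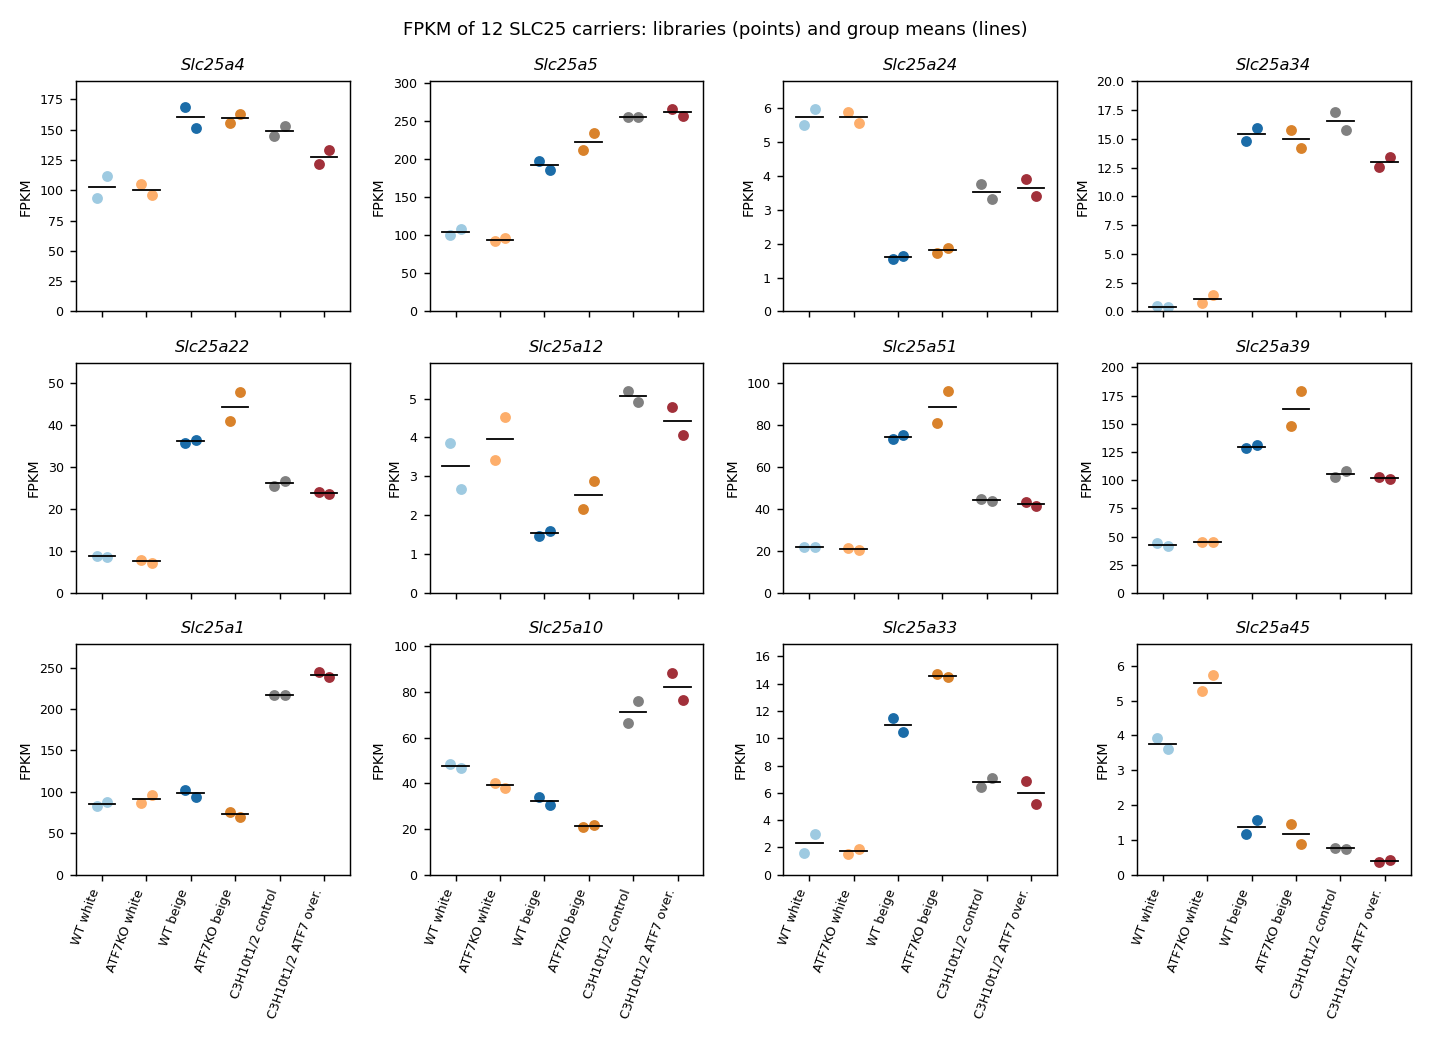
FPKM (y axis, from 0, on a separate scale in each panel) of 12 members in the 6 groups, with 1 point per library and a line at the group mean. Slc25a34, Slc25a22, Slc25a33, Slc25a51 and Slc25a39 sit low in both white groups, Slc25a24, Slc25a12 and Slc25a45 sit low in both primary beige groups, and Slc25a1 and Slc25a10 are lowest in ATF7KO-labelled beige.

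Amino acid carriers were divided. In WT 2 of 6 rose in beige and 2 fell, and in ATF7KO-labelled cultures 2 rose and 1 fell. Slc25a22 (chromosome 7, 141429749 to 141437874), a mitochondrial glutamate carrier, stood at 35.7 and 36.5 FPKM in WT beige, 40.8 and 47.7 in ATF7KO-labelled beige, 8.83 and 8.68 in WT white and 7.92 and 7.19 in ATF7KO-labelled white. The beige mean was 4.12-fold that of white in WT (1.93, SE 0.10, adjusted p = 1.9e-06) and 5.86-fold in ATF7KO-labelled cultures (2.40, SE 0.10, adjusted p = 4.33e-07). Its level in C3H10t1/2 was 25.5 and 26.6 FPKM in the controls and 23.9 and 23.5 with ATF7 overexpressed. Slc25a44 (chromosome 3, 88410494 to 88425141), known as the carrier that brings branched-chain amino acids into brown fat mitochondria, stood at 19.7 and 19.6 FPKM in WT beige, 18.1 and 22.8 in ATF7KO-labelled beige, 11.3 and 9.85 in WT white and 9.79 and 10.1 in ATF7KO-labelled white. The rise was 0.84, SE 0.12, adjusted p = 0.000467 in WT and 0.96, SE 0.12, adjusted p = 0.00015 in ATF7KO-labelled cultures. It stood at 18.9 and 20.6 FPKM in the controls and 20.6 and 19.7 with ATF7 overexpressed in C3H10t1/2, on a level with primary beige.

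Slc25a12 (chromosome 2, 71274295 to 71367554), which encodes aralar, the aspartate-glutamate carrier of the malate-aspartate shuttle, stood at 1.48 and 1.59 FPKM in WT beige, 2.15 and 2.89 in ATF7KO-labelled beige, 3.86 and 2.68 in WT white and 3.42 and 4.52 in ATF7KO-labelled white. White values were above beige ones except that 2.89 FPKM in ATF7KO-labelled beige exceeded 2.68 FPKM in WT white, and the fall in beige was −0.74, SE 0.17, adjusted p = 0.00581 in WT and −0.50, SE 0.17, adjusted p = 0.0314 in ATF7KO-labelled cultures. The call in ATF7KO-labelled cultures was lost in 5 of 16 alternative settings, among them without the first beige or the second white library of that genotype. It was 5.199 and 4.91 FPKM in the controls and 4.79 and 4.07 with ATF7 overexpressed in C3H10t1/2. The same shuttle thus had its oxoglutarate carrier higher and its aspartate-glutamate carrier lower in beige. Slc25a15, an ornithine carrier of the urea cycle, stood at 1.602 and 2.09 FPKM in WT beige, 1.89 and 2.22 in ATF7KO-labelled beige, 2.49 and 2.798 in WT white and 2.17 and 2.52 in ATF7KO-labelled white. Its fall was called in WT (−0.36, SE 0.12, adjusted p = 0.0361) and not in ATF7KO-labelled cultures (−0.13, SE 0.12, adjusted p = 0.389), and the WT call was lost in 6 of 16 alternative settings, 3 of which left out the first WT beige or either WT white library. Slc25a38 (chromosome 9, 120110399 to 120124319), the glycine carrier of haem synthesis, stood at 4.72 and 3.997 FPKM in WT beige, 3.02 and 4.78 in ATF7KO-labelled beige, 4.91 and 6.76 in WT white and 3.79 and 3.31 in ATF7KO-labelled white, with 3.04 and 3.85 FPKM in the controls and 4.48 and 3.35 with ATF7 overexpressed in C3H10t1/2. WT white lay above WT beige and above ATF7KO-labelled white, the ATF7KO-labelled groups overlapped, and it was not called in any comparison, nor was Slc25a29, a carrier of basic amino acids, between beige and white.

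Of the 9 cofactor and nucleotide carriers, 5 rose and 1 fell in WT beige, and 6 rose and 0 fell in ATF7KO-labelled beige. Slc25a51 (chromosome 4, 45395924 to 45408766), the carrier of NAD+ into the matrix, stood at 73.3 and 75.1 FPKM in WT beige, 80.9 and 95.8 in ATF7KO-labelled beige, 21.9 and 21.8 in WT white and 21.4 and 20.7 in ATF7KO-labelled white. Every beige value was over 3 times every white value, and the fold change was 1.72, SE 0.10, adjusted p = 3.52e-06 in WT and 2.01, SE 0.10, adjusted p = 9.76e-07 in ATF7KO-labelled cultures. In C3H10t1/2 it was 44.7 and 43.7 FPKM in the controls and 43.1 and 41.3 with ATF7 overexpressed. Slc25a33 (chromosome 4, 149744036 to 149774267), a pyrimidine nucleotide carrier, stood at 11.5 and 10.5 FPKM in WT beige, 14.7 and 14.5 in ATF7KO-labelled beige, 1.599 and 3.01 in WT white and 1.53 and 1.92 in ATF7KO-labelled white. Its beige mean was 4.76-fold that of white in WT (1.89, SE 0.18, adjusted p = 4.06e-05) and 8.48-fold in ATF7KO-labelled cultures (2.52, SE 0.18, adjusted p = 5.2e-06). An opposite-strand gene, Gm13068, overlaps 14.9% of its exonic length. In C3H10t1/2 the level was 6.45 and 7.11 FPKM in the controls and 6.89 and 5.15 with ATF7 overexpressed.

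Slc25a42 (chromosome 8, 70184340 to 70212281), a carrier of coenzyme A, stood at 7.84 and 7.38 FPKM in WT beige, 9.59 and 8.65 in ATF7KO-labelled beige, 2.84 and 2.82 in WT white and 2.86 and 2.84 in ATF7KO-labelled white. White libraries lay within a narrow range, and all beige libraries were at over 2 times that level (1.17, SE 0.09, adjusted p = 1.3e-05 and 1.39, SE 0.09, adjusted p = 3.21e-06). In C3H10t1/2 it was higher still, at 13.7 and 15.2 FPKM in the controls and 12.5 and 12.4 with ATF7 overexpressed. Slc25a17 (chromosome 15, 81318921 to 81360765), a carrier of the peroxisomal membrane, went the other way, at 17.96 and 18.4 FPKM in WT beige, 19.2 and 21.4 in ATF7KO-labelled beige, 25.3 and 24.7 in WT white and 24.7 and 23.0 in ATF7KO-labelled white. Its fall in beige was called in WT (−0.44, SE 0.09, adjusted p = 0.00411) and not in ATF7KO-labelled cultures (−0.22, SE 0.09, adjusted p = 0.0673), where 5 of 16 alternative settings called it.

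Slc25a26 (chromosome 6, 94500314 to 94604652), the carrier that supplies the matrix with S-adenosylmethionine, was measured in primary beige libraries alone. It stood at 5.94 and 5.04 FPKM in WT beige and 4.64 and 6.52 FPKM in ATF7KO-labelled beige and was listed at 0 in the other 8 libraries, C3H10t1/2 beige included. It is counted above among the members called higher in beige, and no fold is given against a group listed at 0. Other genes showed such steps too. Of 8010 entries with at least 4 FPKM in a whole group, 190 (2.37%) were listed at 0 in another whole group, and 3, this member included, had at least 4 FPKM in both primary beige groups and 0 in the other 4 groups. Whether a listed 0 stands for no reads or for an estimate that failed cannot be told from these values. Slc25a16 stood at 9.48 and 10.2 FPKM in WT beige, 9.16 and 10.1 in ATF7KO-labelled beige, 7.45 and 8.61 in WT white and 5.52 and 5.85 in ATF7KO-labelled white, with 15.7 and 17.9 FPKM in the controls and 16.4 and 15.2 with ATF7 overexpressed in C3H10t1/2. It was called higher in beige in ATF7KO-labelled cultures (0.67, SE 0.10, adjusted p = 0.00052) and not in WT (0.27, SE 0.10, adjusted p = 0.0572), where 5 of 16 alternative settings called it. Slc25a32, a carrier linked to folate and flavin cofactors, stood at 2.34 and 2.34 FPKM in WT beige, 2.73 and 3.095 in ATF7KO-labelled beige, 2.87 and 2.59 in WT white and 3.04 and 2.91 in ATF7KO-labelled white and was called in neither, as was Slc25a36, another pyrimidine nucleotide carrier, at 7.63 and 6.55 FPKM in WT beige, 6.78 and 6.39 in ATF7KO-labelled beige, 6.72 and 4.50 in WT white and 8.402 and 6.296 in ATF7KO-labelled white.

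Of the iron and glutathione carriers, 3 of 4 rose in WT beige, and all 4 in ATF7KO-labelled beige. Slc25a39 (chromosome 11, 102402976 to 102407517), which carries glutathione into the matrix, stood at 129 and 131 FPKM in WT beige, 148 and 179 in ATF7KO-labelled beige, 44.3 and 41.5 in WT white and 45.3 and 45.6 in ATF7KO-labelled white. Its beige mean was 3.03-fold that of white in WT (1.58, SE 0.11, adjusted p = 8e-06) and 3.59-fold in ATF7KO-labelled cultures (1.82, SE 0.11, adjusted p = 2.28e-06). In C3H10t1/2 it was 103 and 108 FPKM in the controls and 103 and 101 with ATF7 overexpressed. Its paralogue Slc25a40 stood far lower, at 1.38 to 3.05 FPKM over all libraries, and passed the test in ATF7KO-labelled cultures alone (0.44, SE 0.16, adjusted p = 0.0387). That call was lost in 9 of 16 alternative settings, 7 of which left out 1 library. Slc25a37 (chromosome 14, 69241851 to 69285103), which encodes mitoferrin-1, the iron importer of red cell precursors, stood at 3.46 and 4.33 FPKM in WT beige, 4.17 and 4.68 in ATF7KO-labelled beige, 2.59 and 1.91 in WT white and 2.33 and 2.78 in ATF7KO-labelled white. The rise was 0.59, SE 0.14, adjusted p = 0.00687 in WT and 0.61, SE 0.14, adjusted p = 0.00492 in ATF7KO-labelled cultures, with the WT call lost without the second WT beige library, and C3H10t1/2 libraries were lower, at 1.73 and 1.55 FPKM in the controls and 1.87 and 1.83 with ATF7 overexpressed. Slc25a28, which encodes mitoferrin-2, the form of other tissues, stood at 8.34 and 8.08 FPKM in WT beige, 8.904 and 8.56 in ATF7KO-labelled beige, 4.81 and 4.42 in WT white and 5.304 and 5.31 in ATF7KO-labelled white, and rose in both genotypes (0.72, SE 0.09, adjusted p = 0.000171 in WT).

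The members related to the uncoupling proteins were not called between beige and white. Slc25a30 stood at 4.98 and 4.48 FPKM in WT beige, 5.38 and 4.35 in ATF7KO-labelled beige, 3.14 and 4.57 in WT white and 3.44 and 4.05 in ATF7KO-labelled white (0.25, SE 0.16, adjusted p = 0.202 in WT). Slc25a14 did not pass the filter in the primary cultures. Of the uncoupling proteins outside the SLC25 symbols, Ucp1 stood at 19.1 and 17.2 FPKM in WT beige and 51.6 and 24.5 FPKM in ATF7KO-labelled beige, and Ucp2 stood at 30.5 and 29.4 FPKM in WT beige, 28.5 and 28.1 in ATF7KO-labelled beige, 27.3 and 18.9 in WT white and 29.5 and 31.6 in ATF7KO-labelled white. Ucp3 was higher in WT beige (0.52, SE 0.16, adjusted p = 0.0232), at 1.56 and 1.34 against 0.666 and 0.761 FPKM in WT white.

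Of the remaining members, Slc25a46, an outer membrane protein tied to mitochondrial fusion and shape, stood at 14.2 and 14.3 FPKM in WT beige, 17.2 and 16.03 in ATF7KO-labelled beige, 8.22 and 8.03 in WT white and 8.18 and 6.88 in ATF7KO-labelled white. All beige values were above all white ones (0.74, SE 0.10, adjusted p = 0.000323 in WT and 1.05, SE 0.10, adjusted p = 2.92e-05 in ATF7KO-labelled cultures). Slc25a45 (chromosome 19, 5878466 to 5885768) showed the reverse, at 1.17 and 1.58 FPKM in WT beige, 1.46 and 0.889 in ATF7KO-labelled beige, 3.92 and 3.596 in WT white and 5.29 and 5.75 in ATF7KO-labelled white. It was 2.73-fold lower in beige in WT (−1.01, SE 0.14, adjusted p = 0.000421) and 4.71-fold lower in ATF7KO-labelled cultures (−1.60, SE 0.14, adjusted p = 1.96e-05). C3H10t1/2 had even less, at 0.7596 and 0.747 FPKM in the controls and 0.362 and 0.435 with ATF7 overexpressed.

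Other parts of the mitochondrion were higher in beige too. From lists of related genes, 19 of 20 general mitochondrial genes rose in WT beige and 0 fell (median log2 fold change 1.32), and 20 of 20 rose in ATF7KO-labelled beige (1.62). Hspa9, the matrix chaperone mortalin, stood at 347 and 350.2 FPKM in WT beige against 87.8 and 105 FPKM in WT white (1.85, SE 0.11, adjusted p = 3.9e-06). Cycs, cytochrome c, stood at 12.9 and 13.7 against 2.51 and 2.66 FPKM, and Ndufv1, a subunit of complex I, at 135 and 126 against 38.7 and 42.9 FPKM. Of 16 genes that import carrier proteins through the outer membrane and the TIM22 complex, 10 rose and 0 fell in WT (0.59), and 15 rose in ATF7KO-labelled cultures (1.05). The 3 with the lowest p in WT were Tomm40, the outer membrane pore (1.28, SE 0.09, adjusted p = 7.5e-06), Tomm5, one of its small subunits (1.18, SE 0.11, adjusted p = 3.93e-05), and Timm8b, a chaperone of the intermembrane space (1.05, SE 0.10, adjusted p = 4.16e-05). Of 22 other mitochondrial transport genes without an Slc25a symbol, 11 rose and 4 fell in WT (0.41). They were not all from other families, since Ucp1, Ucp2 and Ucp3 were among them. Abcb8, an ABC transporter of the inner membrane, was at 1.33, SE 0.10, adjusted p = 9.73e-06. Mpc1, a subunit of the pyruvate carrier, was at 1.38, SE 0.11, adjusted p = 1.66e-05.

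Beside the summed level of those 20 listed general mitochondrial genes, the carriers' sum was smaller in beige. Summed FPKM of the 34 members was 26.7% to 28.6% of the sum of the 20 general genes in primary beige, 44.2% to 50.1% in white and 31.9% to 35.1% in C3H10t1/2. Primary beige and white libraries did not overlap in this measure, whereas beside the import genes they did. The members' sum was 2.52 to 2.69 times that of the 16 import genes in primary beige, 2.60 to 3.13 times in white and 2.56 to 2.89 times in C3H10t1/2. The median log2 fold change of the members in WT (0.48) lay below that of the general genes (1.32). Both comparisons hold for this list of general genes, which was chosen with earlier results of these data known. Its sum leans on abundant genes, such as Atp5b at 966 and 957 FPKM and Cox4i1 at 816 and 784 in WT beige, of 3882 and 3812 in all.

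Between ATF7KO-labelled and WT beige cultures no carrier was called. Of 33 members tested, 0 passed, 9 had an unadjusted p under 0.05 (beside 10.3% of all genes), and 22 had a log2 fold change above 0, by limma, where 17 of 11294 genes (0.151%) were called. The median was 0.07 for the members and 0.04 for all genes, so all genes leaned above 0 as well. The share of all genes above 0 was not counted, here or in the other ATF7 comparisons. The lowest p values belonged to Slc25a10 (−0.57, SE 0.10, adjusted p = 0.119) and Slc25a1 (−0.43, SE 0.11, adjusted p = 0.255), whose values are given above and were lower in both ATF7KO-labelled beige libraries than in both WT ones. Their 95% intervals were −0.78 to −0.35 and −0.67 to −0.18. In 14 members both ATF7KO-labelled libraries were above both WT ones, and in 4 both were below, among them Slc25a1, Slc25a10 and Slc25a25, where 27.1% and 14.1% of all genes were so placed. Among the general mitochondrial genes 19 of 20 lay above 0 (median 0.15) and 0 were called, and among the import genes 15 of 16 (median 0.15) and 0 were called. For a typical member the 95% interval reached 0.28 to either side of its value.

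In white cultures no carrier was called between the genotypes either. By limma, 0 of 33 passed, 5 had an unadjusted p under 0.05 (beside 19.9% of all genes) and 14 lay above 0, beside 213 genes called (1.89%), with medians of −0.02 for the members and 0.03 for all genes. Slc25a16 (−0.43, SE 0.10, adjusted p = 0.0788) and Slc25a34 (0.54, SE 0.14, adjusted p = 0.0979) had the lowest p. Slc25a34 was near the floor here, at 0.462 and 0.392 FPKM in WT white and 0.778 and 1.41 in ATF7KO-labelled white. It entered the fit through the beige libraries alone. Slc25a16 is called when the values are quantile-normalized, median-centred, rescaled without small RNA genes or fitted with all 12 libraries, and Slc25a34 in the last of these. ATF7KO-labelled libraries did not overlap WT ones in 6 members that were higher and 9 that were lower, beside 32.1% and 21.2% of all genes. The summed macrophage markers were 420 to 426 FPKM in WT white and 543 to 571 FPKM in ATF7KO-labelled white, with 4 of the 9 called higher, and their part in these values was not tested.

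The genotype effect was also compared between beige and white directly. By limma, no member was called in this interaction, with 9 of 33 at an unadjusted p under 0.05 (16.8% of all genes), beside 33 genes called (0.292%) and medians of 0.13 for the members and 0.01 for all genes. Slc25a1 (−0.53, SE 0.15, adjusted p = 0.18) and Slc25a22 (0.47, SE 0.15, adjusted p = 0.197) had the lowest p. Slc25a5, Slc25a22, Slc25a35 and Slc25a51 had both ATF7KO-labelled libraries above both WT ones in beige and below both in white, beside 6.28% of all genes, with adjusted p values of 0.27, 0.197, 0.295 and 0.343 for the interaction. In 0 members was it the reverse, beside 5.13% of all genes.

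**Figure D4:**
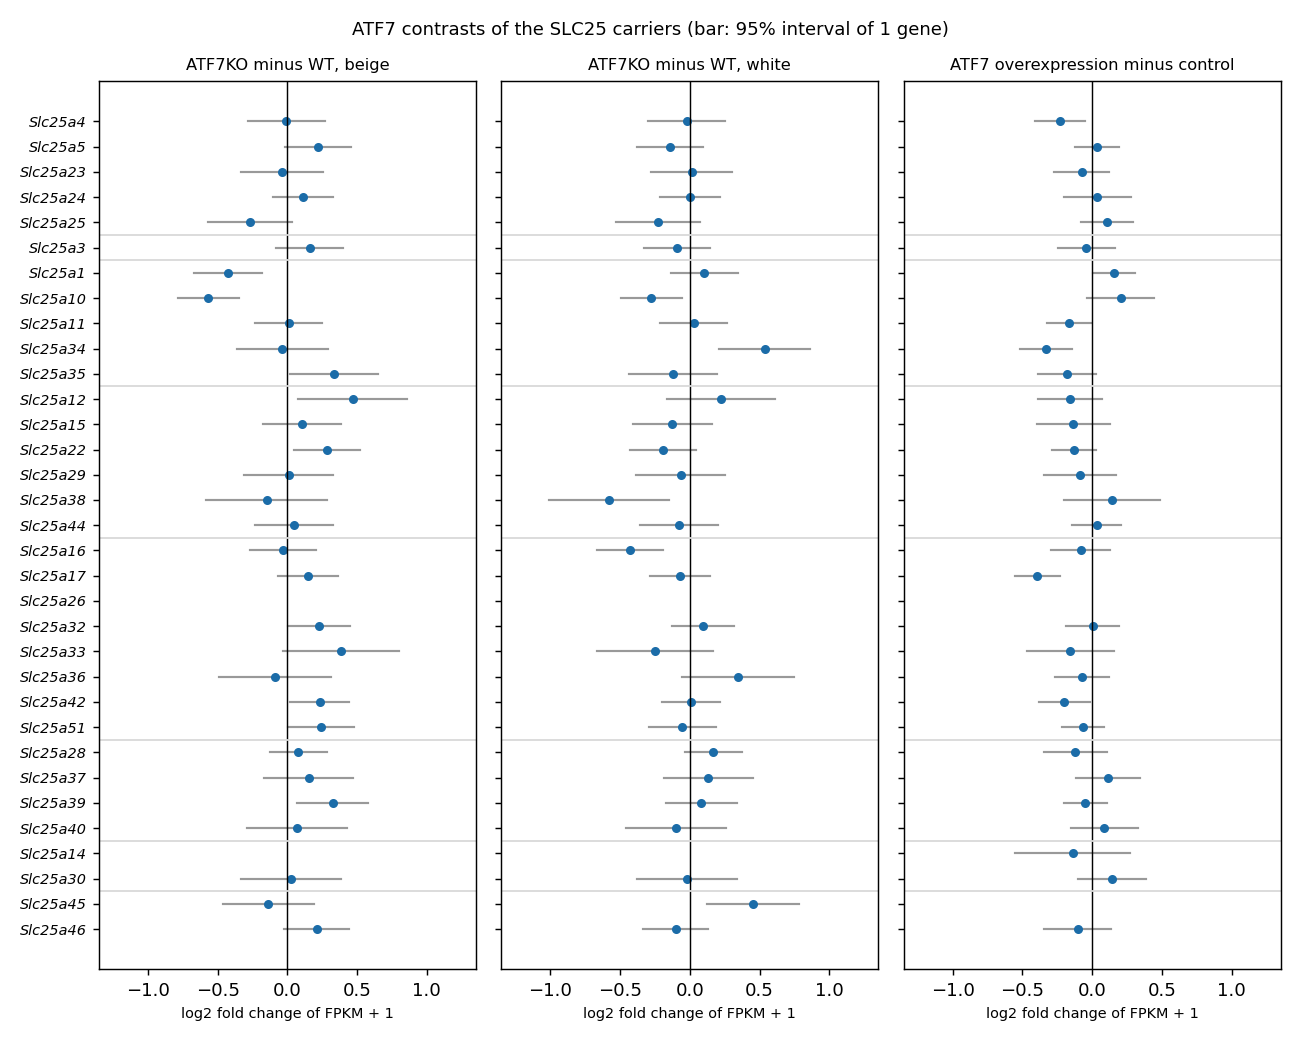
Log2 fold change of FPKM + 1 (x axis) of the members drawn (rows, grouped by role) for ATF7KO-labelled minus WT in beige (left) and in white (middle) and for ATF7 overexpression minus control in C3H10t1/2 (right), with the 95% interval of each gene as a bar. No member passed an adjusted p of 0.05 in any panel, and Slc25a10 and Slc25a1 lie farthest to the left in beige.

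Overexpression of ATF7 in C3H10t1/2 called no carrier. Of 32 members tested by limma, 0 passed, 7 had an unadjusted p under 0.05 (beside 17.2% of all genes) and 11 lay above 0, beside 149 of 9981 genes called (1.49%), with medians of −0.08 for the members and −0.02 for all genes. The lowest p was that of Slc25a17, at 33.3 and 31.9 FPKM in the controls and 23.9 and 25.2 with ATF7 overexpressed (−0.39, SE 0.07, adjusted p = 0.0554). Slc25a17 is called when all 12 libraries are fitted together. In 12 members both overexpressing libraries were below both controls, among them Slc25a4, Slc25a34, Slc25a39 and Slc25a51, and in 4 both were above (Slc25a1, Slc25a5, Slc25a10 and Slc25a37), where 28.8% and 20.3% of all genes were so placed. Of the 31 members tested in both fits, Slc25a1 and Slc25a10 were lower in ATF7KO-labelled beige and higher with ATF7 overexpressed, beside 3.33% of 9700 genes. The reverse, higher in ATF7KO-labelled beige and lower with overexpression, held for 7 members (Slc25a12, Slc25a17, Slc25a22, Slc25a35, Slc25a39, Slc25a42 and Slc25a51), beside 8.61% of these genes. Libraries did not overlap in these patterns, and none of the differences passed the test. The share of ANT1 among ANT1 and ANT2 was 36.2% and 37.5% in controls and 31.2% and 34.1% with overexpression. Ucp1, at 8.71 and 6.82 FPKM in controls and 1.08 and 0.8204 with overexpression, fell (−2.16, SE 0.13, adjusted p = 0.00198). Of the 20 general mitochondrial genes 0 were called and 1 lay above 0 (median −0.16). Among the 16 import genes 0 were called and 2 lay above 0 (median −0.14), beside the median of −0.02 for all genes.

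The 2 sources of beige adipocytes differed in their carriers. Between WT primary beige and C3H10t1/2 control beige, 10 of 34 members were higher in primary cells and 14 lower, beside 25.3% and 31.1% of all 11601 genes (56.4% in all), with medians of −0.10 and −0.06. Without Slc25a14, Slc25a26 and Slc25a45, which passed the filter through 1 source alone, 8 of 31 were higher and 13 lower, beside 20.3% and 34.1% of 9700 genes. Cell source, experiment and any batch cannot be told apart in this comparison. Lower in primary beige were the carriers of citrate, phosphate and dicarboxylates, Slc25a1 (−1.13, SE 0.09, adjusted p = 1.97e-06), Slc25a3 (−1.04, SE 0.09, adjusted p = 7.41e-06) and Slc25a10 (−1.12, SE 0.10, adjusted p = 5.2e-06), each at over 2 times the FPKM in C3H10t1/2. Slc25a25 stood at 18.2 and 20.1 FPKM in the controls and 21.3 and 19.99 with ATF7 overexpressed in C3H10t1/2 and was lower in primary beige too (−1.12, SE 0.12, adjusted p = 2.3e-05). So were Slc25a12 (−1.26, SE 0.16, adjusted p = 7.96e-05), Slc25a42 (−0.84, SE 0.08, adjusted p = 1.08e-05) and Slc25a17 (−0.81, SE 0.08, adjusted p = 1.09e-05). Slc25a32 was at 4.68 and 4.74 FPKM in the controls and 4.91 and 4.53 with ATF7 overexpressed in C3H10t1/2 (−0.77, SE 0.08, adjusted p = 2.55e-05). Higher in primary beige were Slc25a37 (0.89, SE 0.13, adjusted p = 0.000193), Slc25a51 (0.73, SE 0.09, adjusted p = 4.25e-05) and Slc25a33 (0.62, SE 0.19, adjusted p = 0.0156), and 3 of the 4 iron and glutathione carriers. Slc25a33 lost its call without the first library of either group, and the calls of Slc25a14, Slc25a29, Slc25a39 and Slc25a45 were lost without 1 or more of the 4 libraries compared. Slc25a34 and Slc25a44, both higher in beige than in white, were not called between the sources (−0.10, SE 0.13, adjusted p = 0.542 and −0.01, SE 0.11, adjusted p = 0.967), with intervals of −0.39 to 0.19 and −0.25 to 0.23.

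**Figure D5:**
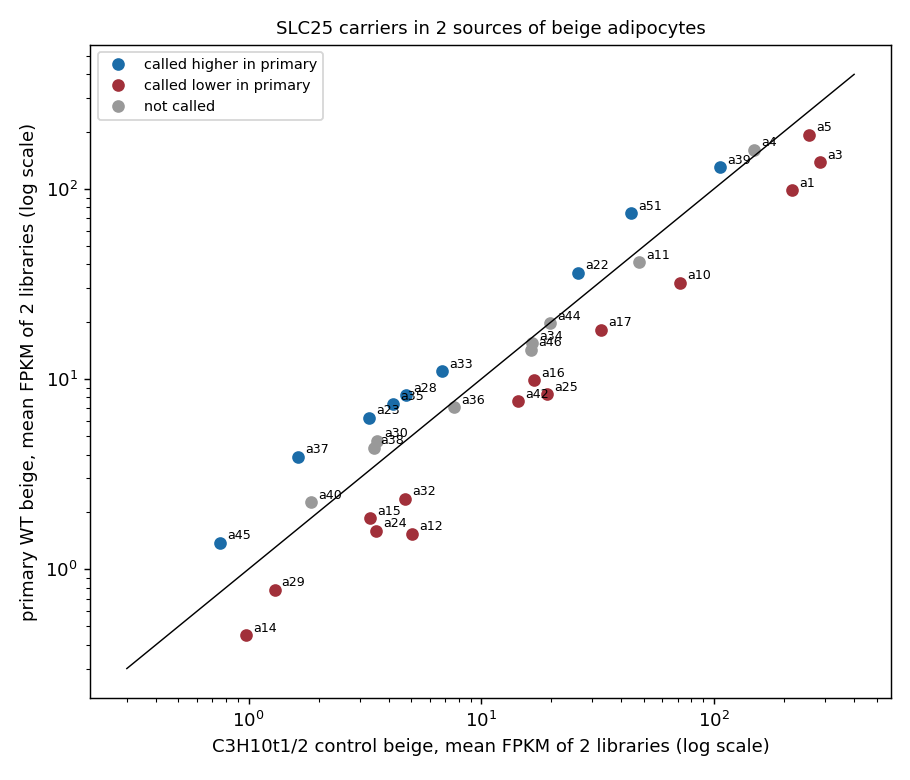
Mean FPKM of the members drawn (label without the leading Slc25) in C3H10t1/2 control beige (x axis) and WT primary beige (y axis), both on log scales, with the line of equal values. Blue points were called higher and red ones lower in primary cells by limma. Slc25a1, Slc25a3 and Slc25a10 lie below the line and Slc25a51 and Slc25a37 above it, and Slc25a26, at 0 in C3H10t1/2, cannot be drawn.

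Since ATF7 binds cAMP response elements, the start regions of the members were searched for that palindrome, TGACGTCA. RefSeq windows of 300 bases (GRCm38.p6) were found for 26 of 34 members, some with several windows. For every motif, members are counted by gene and the background by window, so these measures are unlike. The palindrome stood in windows of 2 members, Slc25a25 and Slc25a36, and in 588 of 32851 windows of all genes (1.79%). Both are shown with the palindrome in capitals. It begins 150 bases before the start in Slc25a25, whose other windows lacked it, and 161 bases before the start in Slc25a36.
Slc25a25 (chr2:32424017-32424316, minus strand): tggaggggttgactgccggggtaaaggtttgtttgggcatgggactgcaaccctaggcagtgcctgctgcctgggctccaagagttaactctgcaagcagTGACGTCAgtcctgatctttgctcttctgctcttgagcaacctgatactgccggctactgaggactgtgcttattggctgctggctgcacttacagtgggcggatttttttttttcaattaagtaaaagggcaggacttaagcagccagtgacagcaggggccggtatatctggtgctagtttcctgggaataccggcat
Slc25a36 (chr9:97110992-97111291, minus strand): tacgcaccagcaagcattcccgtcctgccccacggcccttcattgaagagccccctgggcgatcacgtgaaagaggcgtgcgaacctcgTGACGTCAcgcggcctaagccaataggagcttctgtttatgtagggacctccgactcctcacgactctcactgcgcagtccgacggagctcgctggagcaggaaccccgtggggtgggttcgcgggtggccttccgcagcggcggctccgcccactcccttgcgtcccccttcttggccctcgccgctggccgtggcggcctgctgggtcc

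Neither of these genes was called in an ATF7 comparison. Slc25a25 differed by −0.27, SE 0.13, adjusted p = 0.528 in beige, −0.23, SE 0.13, adjusted p = 0.364 in white and 0.11, SE 0.08, adjusted p = 0.536 with overexpression. For Slc25a36 the values were −0.09, SE 0.18, adjusted p = 0.905, 0.35, SE 0.18, adjusted p = 0.313 and −0.07, SE 0.08, adjusted p = 0.69. Of the other motifs, searched on both strands, the DR1 repeat bound by PPAR and RXR and the oestrogen-related receptor element (TNAAGGTCA), which share the letters AGGTCA, stood in windows of 0 members and in 0.0396% and 1.28% of all windows. The NRF1 consensus motif stood in that of 1 member, Slc25a3, 214 bases before its start on the minus strand of the window, and in 4.6% of all windows. A match of letters is a description and not a bound site.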

How the data were processed

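RNA was sequenced from 12 libraries, and the 6 groups of 2 follow the titles and descriptions of the samples. Total RNA was depleted of ribosomal RNA, made into directional libraries and read for 36 bases from both ends, per the labels' protocols. The FPKM values, 1 per gene, were computed by the authors and deposited per library, per the file headers, and were placed on mm10 (GRCm38), per the submitters' processing notes. Which aligner, counting tool, strand setting and annotation they used is not given in the sources used here. Depth is unknown, so no counting interval could be given. Libraries were joined by symbol and locus, since their row order differed, and 1 was added to each start, which is counted from 0 (60.7% of 23609 RefSeq starts of the same symbol were greater by 1).

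Tests used limma 3.58.1 in R 4.3.3 (linear model per gene, moderated with a mean trend), two-sided, on log2 of FPKM plus a pseudocount of 1. A gene entered with at least 1 FPKM in 2 libraries of the fit, and p-values were adjusted by Benjamini and Hochberg over all genes tested. The 8 primary libraries shared 1 fit (4 residual degrees of freedom), C3H10t1/2 was fitted alone (2), and the sources were compared in 1 fit of all 12 (6). Between the 2 libraries of a group Pearson's r over genes was 0.969 to 0.986, and genes are not independent replicates. The summed FPKM of a library was 225536 to 272371.

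The members and gene lists (import genes, other transporters, general mitochondrial genes, cell markers) were chosen with earlier results of these data known. Values in every library are given for the 6 largest rises and falls in WT beige against white, for up to 8 called members of each other comparison or the 2 with the lowest p, and for 16 fixed genes. One member is included in the counts and sums but is not reported here by name or drawn. From each list up to 3 genes with the lowest p are named, and a few others where a sum or its limits are described. Read sharing and overlaps were computed from GENCODE M21. Alternatives were another pseudocount, no filter, quantile normalization, median centring, leaving out small RNA genes and moderation without the mean trend. Further ones were a replicate block, 1 fit of all libraries, leaving out each library and, added later, counting only members that passed the filter on both sides.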

Additional observations from a re-analysis of the deposited data

How the results depend on the processing

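Of the calls in the report, 19 of 24 members in WT beige against white, 20 of 25 in the ATF7KO-labelled pair and 19 of 24 between primary beige and C3H10t1/2 were made under every alternative run. In white cultures, ATF7KO-labelled against WT, 1 member was called with quantile normalization, 1 with median centring, 1 without small RNA genes and 2 with all 12 libraries in the fit, against 0 in the report. For overexpression 1 was called with all 12 libraries. Counting only members that passed the filter on both sides, a choice made after seeing the data, left 22, 23 and 21 called in WT beige against white, the ATF7KO-labelled pair and between the sources. Slc25a3 in WT beige against white turned to −0.0882 with quantile normalization, and the cause was not tested. Leaving out 1 library gave 21 to 24 members called in WT beige against white, 22 to 24 in the ATF7KO-labelled pair, 0 to 0 in each of the ATF7 comparisons and their interaction, and 19 to 26 between the sources. Over all genes, leaving out 1 library gave 5 to 20 calls for ATF7KO-labelled beige, 23 to 277 for white, 16 to 43 for the interaction and 17 to 138 for overexpression, and the other alternatives gave 12 to 27, 54 to 642, 20 to 116 and 22 to 198. The lowest of these for white came with a pseudocount of 0.1 and the highest with all 12 libraries. For overexpression the lowest came with no filter on low values and the highest without small RNA genes. Scaling moved the balance of calls over all genes in WT beige against white, from 2440 higher and 3629 lower to 3054 and 2950 with quantile normalization, 3121 and 2955 with median centring and 1927 and 4910 without small RNA genes. With these 3, the members were 18 and 5, 20 and 5, and 17 and 8 in WT, and 19 and 5, 20 and 3, and 19 and 6 in the ATF7KO-labelled pair.

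Whether replicate numbers in the labels pair the samples could not be settled. Deviations of same-numbered libraries correlated at −0.13 to 0.12 between groups, with 0.11 between the genotypes in beige and 0.12 in white. With 2 libraries per group, such low correlations do not exclude a pairing. With the replicate block, 25 members were called in WT beige against white, 25 in the ATF7KO-labelled pair, 0 in each ATF7 comparison and the interaction, and 24 between the sources. Over all genes the block gave 27 calls for ATF7KO-labelled beige against 17 without it, and 88 for overexpression against 149. Absolute depth is unknown, so how far it limits the low members was not measured.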

Other observations

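Each member's 6 group means were ranked. ATF7KO-labelled beige held the highest mean for 12 of 34 members and the lowest for 3, and WT beige for 3 and 6. ATF7KO-labelled white held the highest mean for 2 members and the lowest for 11, and WT white for 1 and 8. The same ranking was not made over all genes, and no member was called between the genotypes in the report. The C3H10t1/2 controls held the highest mean for 11 members and the overexpressing libraries for 5. Levels of 50 FPKM or more were reached by 6 members in each beige group, primary or C3H10t1/2, and by 4 in each white group. Members under 1 FPKM in all 4 white libraries were Slc25a14 and Slc25a26.

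Short reads can be shared between copies. Of the 34 members, 23 had no 36-base stretch in common with the transcripts of another gene and 7 shared over 1% of them. After Slc25a5, the largest shares were 13.2% in Slc25a36, 12.8% in Slc25a40 and 8.72% in Slc25a37, whose values are uncertain to that extent. In 10 members an exon overlapped a gene on the opposite strand.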
